A study of Thermothelomyces thermophilus with 6 samples.

Results

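The heat-loving mould Myceliophthora thermophila (current name Thermothelomyces thermophilus, strain ATCC 42464) was sampled as mycelium. Mycelium that had spent 4 h on 2% starch was compared with mycelium that had spent 4 h on glucose. The comparison takes in 4 of the 6 RNA-seq libraries of the study, 2 from starch and 2 from glucose, chosen by their titles, and all 9110 genes of the count table. Both groups came from an 18 h preculture at 45 °C in Vogel's salts with 2% glucose, and the mycelium was washed before the move. The glucose concentration in the test medium is not given in the sources used here, so the form of the sugar and its amount cannot be told apart. The remaining 2 libraries, from mycelium without a carbon source, served only to estimate the spread between replicates. The labels do not tell whether replicates were separate cultures, so every p-value speaks for the spread of these libraries alone, and that spread may be technical.

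Starch is a polymer of glucose that fungi take apart outside the cell with secreted enzymes, among them alpha-amylases and glucoamylase, before glucose is taken up. In filamentous fungi such enzymes are commonly induced by maltose-related sugars through a zinc-cluster regulator (AmyR in Aspergillus), and many genes for the use of other carbon sources are held down while glucose is plentiful (carbon catabolite repression). Genes of 1 pathway, in particular those for secondary metabolites, often lie side by side in filamentous fungal genomes.

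The starch libraries held 22539023 and 22975353 counted reads and the glucose libraries 19591786 and 23635336. At this depth 3 reads correspond to 0.131 to 0.133 CPM (read counts scaled to library size) on starch and to 0.127 to 0.153 CPM on glucose, and intervals given on reads cover counting error only. Replicates lay close together, as seen in the absolute log2 ratio of CPM (pseudocount 1) over 8718 tested genes. Its median was 0.0568 between the starch libraries and 0.0570 between the glucose libraries. In the 4 pairs of a starch and a glucose library it was 0.278 to 0.280. No gene differed more than 2-fold between replicates on that scale, whereas 572 to 594 genes did between media. Levels below are scaled RPKM, that is RPKM recomputed after TMM scaling of the library sizes, so that genes of different length can be set side by side. Fold changes are starch over glucose from edgeR's quasi-likelihood fit, and "past the 2-fold test" means an adjusted p under 0.05 in edgeR's test against an absolute log2 fold change of 1 (glmTreat).

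Genes with a known product came first. Only 6 genes carry a symbol in the RefSeq table, and 3 of them were higher on starch past the 2-fold test: gla1, cbdA and ganA. The background for such a call is 2.09% of the 8718 tested genes (182 genes), and 3.14% (274 genes) were lower past the same test. The plot of the symbol-bearing genes shows every library.

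**Figure D1:**
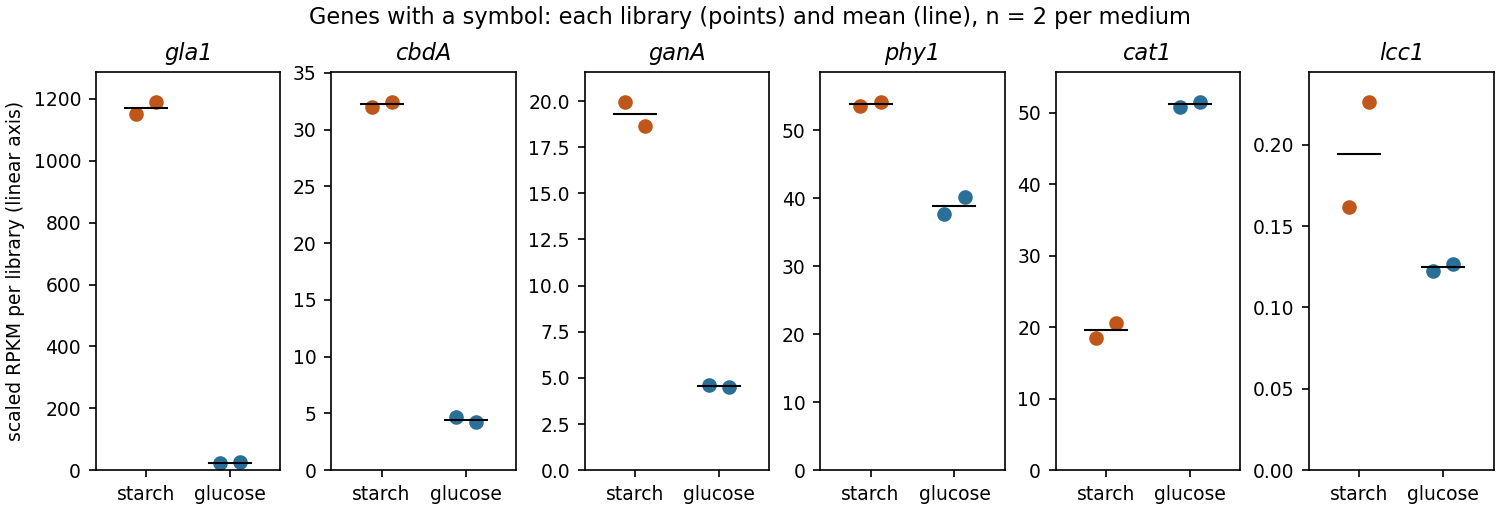
Scaled RPKM (linear axes from 0, a separate axis for each gene) of the 6 genes with a symbol in each starch and glucose library; points are libraries and lines the mean of 2. The starch points of gla1 lie at 1150 and 1191 against 23.5 and 25.3 on glucose, and cat1 is the gene of the 6 with its starch points at the lower level.

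The glucoamylase gene gla1 (Mycth_72393, 2117 bases) encodes the secreted enzyme that clips single glucose units off the chain ends of starch. It collected 56953 and 60152 reads on starch, against 878 and 1140 reads on glucose. Its scaled RPKM was 1150 and 1191 on starch and 23.5 and 25.3 on glucose, which placed it 86th of all genes by level on starch and 4191st on glucose. Both starch libraries lay far above both glucose libraries, and the log2 fold change was 5.58 (standard error 0.035, adjusted p = 2.07e-60, edgeR). The gene was not silent on glucose, where its level was close to the median of the tested genes (22.9 scaled RPKM). The genes on either side of gla1 in the RefSeq order did not share its rise. Mycth_2311886 had 19.0 and 17.6 scaled RPKM on starch and 17.5 and 18.1 on glucose, with overlapping groups (adjusted p = 0.621, edgeR). On the other side, Mycth_2311889 was slightly lower on starch (log2 fold change -0.40, adjusted p = 1.75e-07, edgeR).

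The cellobiose dehydrogenase gene cbdA (Mycth_111388, 2725 bases) encodes a secreted oxidoreductase known from cellulose breakdown. Its level was 32 and 32.5 scaled RPKM on starch, against 4.66 and 4.22 on glucose (log2 fold change 2.86, standard error 0.071, adjusted p = 2.36e-35, edgeR). Both neighbours of cbdA were higher on starch as well, Mycth_2093073 by a log2 fold change of 0.71 (adjusted p = 2.91e-16) and Mycth_101399 by 0.95 (adjusted p = 2.18e-09), but neither passed the 2-fold test (edgeR). At an adjusted p under 0.05, 36.1% of all tested genes were called higher.

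The endo-galactanase gene ganA (Mycth_43163, 1053 bases) encodes an enzyme that cuts the galactan side chains of pectin. It had 19.97 and 18.7 scaled RPKM on starch, against 4.63 and 4.502 on glucose (log2 fold change 2.08, standard error 0.12, adjusted p = 8.96e-21, edgeR). The genes beside it did not rise with it. On one side Mycth_2107104 moved the other way: it had 2.70 and 3.03 scaled RPKM on starch and 44.0 and 46.5 on glucose, a log2 fold change of -3.98 (standard error 0.11, adjusted p = 4.35e-34, edgeR). On the other side Mycth_2107102, a gene of high level with 1943 and 1903 scaled RPKM on starch against 2229 and 2202 on glucose, had a log2 fold change of -0.20 (adjusted p = 2.68e-10, edgeR), which was 0.00098 with library totals as the only scaling. Of 8385 neighbouring pairs of tested genes, 7 (0.083%) were past the 2-fold test in opposite directions. Of single genes, 2.09% were higher and 3.14% lower. The share of opposed pairs that these shares alone would give was not computed.

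Symbols were also given to a phytase, a catalase and a laccase. The phytase gene phy1 (Mycth_104551), whose product releases phosphate from phytate, had 53.6 and 54.2 scaled RPKM on starch and 37.7 and 40.2 on glucose, and its log2 fold change of 0.47 (standard error 0.057, adjusted p = 6.28e-10, edgeR) did not pass the 2-fold test. Of its neighbours, Mycth_117620 had a log2 fold change of 0.30 (adjusted p = 0.0116, but 0.143 with DESeq2, 0.107 without starch replicate 2 and 0.104 without glucose replicate 1) and Mycth_2310013 one of -0.04 (adjusted p = 0.627, edgeR). The catalase gene cat1 (Mycth_80916), whose product breaks down hydrogen peroxide, had 18.4 and 20.6 scaled RPKM on starch against 50.8 and 51.5 on glucose (log2 fold change -1.39, standard error 0.050, adjusted p = 1.30e-28, edgeR) and was lower past the 2-fold test. Both neighbours of cat1 were called lower on starch at smaller size, Mycth_2304406 with a log2 fold change of -0.40 (adjusted p = 0.00039, and 0.0748 with library totals as the only scaling) and Mycth_2118274 with -0.75 (adjusted p = 0.00485, edgeR). At an adjusted p under 0.05, 32.5% of all tested genes were called lower. Reads of the laccase gene lcc1 (Mycth_51627) were few, at 7 and 10 on starch and 4 and 5 on glucose. No difference was called (adjusted p = 0.411, edgeR), and the scaled read ratio was 1.56 (95% counting interval 0.656 to 3.96). At this depth a small difference could not be told from none. The genes on both sides of lcc1, Mycth_2065457 and Mycth_95391, were as sparse, with 2 to 13 reads in each library.

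The whole table held many small differences and few large ones. At an adjusted p under 0.05, 36.1% of tested genes were higher and 32.5% lower on starch (edgeR), and in 82.9% of genes both starch libraries lay on 1 side of both glucose libraries (above them in 44.6% and below them in 38.3%). The median absolute log2 fold change was 0.31 and the median standard error 0.062. Past the 2-fold test, 82 of the 182 higher genes and 83 of the 274 lower genes differed more than 4-fold, and 31 and 20 more than 8-fold. Beyond 32-fold there were 7 higher genes and 1 lower gene. The smallest change that passed had a log2 fold change of 1.10 among higher genes and -1.07 among lower genes, whereas 277 genes with a fitted rise over 2-fold and 130 with a fitted fall over 2-fold did not pass. Complete presence or absence was not seen at any sizeable level. No gene without a read in both glucose libraries had more than 12 reads over both starch libraries, and no gene without a read on starch had more than 7 on glucose.

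Calls lower on starch were most frequent among genes of high level. The median log2 fold change of all tested genes also fell with level, from 0.19 in the lowest 20% of genes to -0.14 in the highest. Ranked by mean scaled RPKM over the 4 libraries, the top 20% of genes (76.7 scaled RPKM and more) held 24 genes higher and 114 lower on starch past the 2-fold test, while the bottom 20% (up to 5.88 scaled RPKM) held 53 higher and 31 lower. With library totals as the only scaling, which shifts the median log2 fold change of all genes by 0.205, these counts were 38 and 80 in the top 20% and 76 and 26 in the bottom 20%, and with DESeq2 they were 22 and 107 in the top 20% and 25 and 16 in the bottom 20%. The excess of higher genes at the bottom over the top was thus small with DESeq2. At few reads a change of a given size passes the 2-fold test less readily. Counts of calls at the bottom and the top are therefore not fully alike. The split over all genes also moved: 39.9% of calls past the 2-fold test were higher on starch with TMM scaling and 58.6% with library totals. The genes lower on starch took 3.78% and 3.796% of all counted reads on starch, against 12.2% and 12.4% on glucose. The genes higher on starch took 4.16% and 4.22% of reads on starch, against 0.987% and 0.997% on glucose. These shares follow from how the genes were chosen and are given as a description. In classes of gene length, each with 20% of genes, 1.09% to 2.64% of genes were higher and 2.12% to 4.19% lower, against 1.38% to 3.04% higher and 1.78% to 6.54% lower in the classes of level.

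**Figure D2:**
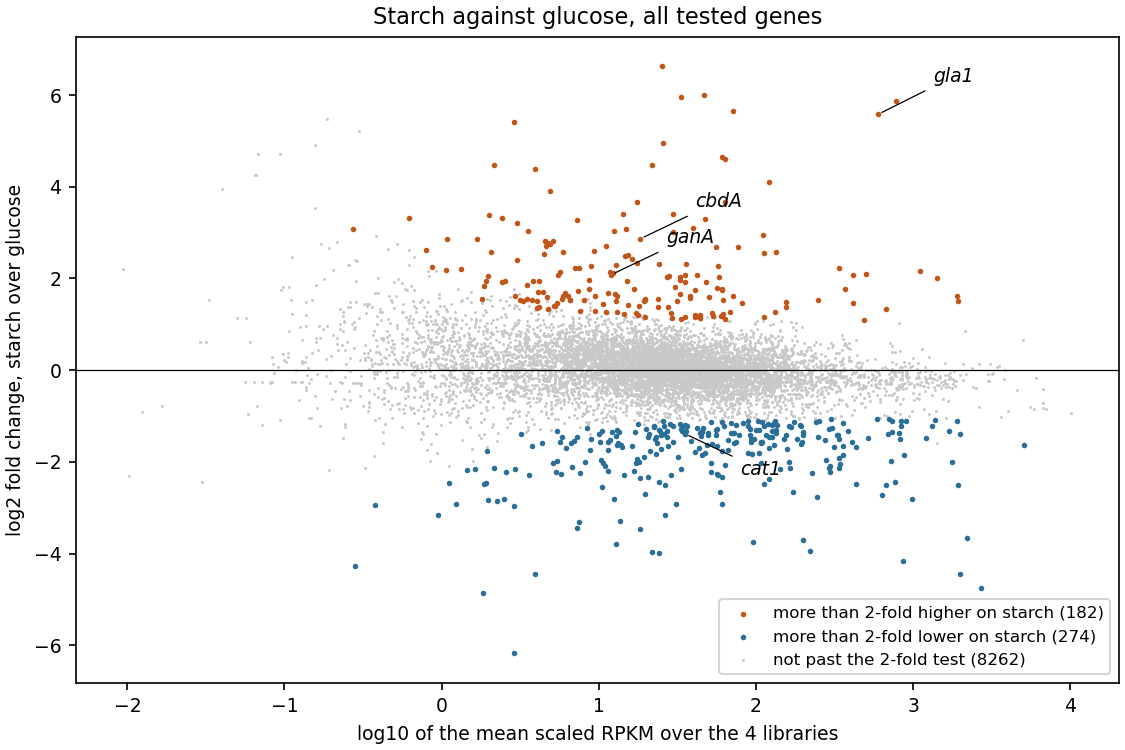
Log2 fold change, starch over glucose, of 8718 tested genes against the log10 of their mean scaled RPKM over the 4 libraries. Orange points are the 182 genes higher and blue points the 274 genes lower on starch past the 2-fold test; gla1 stands at 5.58, and the blue points reach further to the right than the orange ones.

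**Figure D3:**
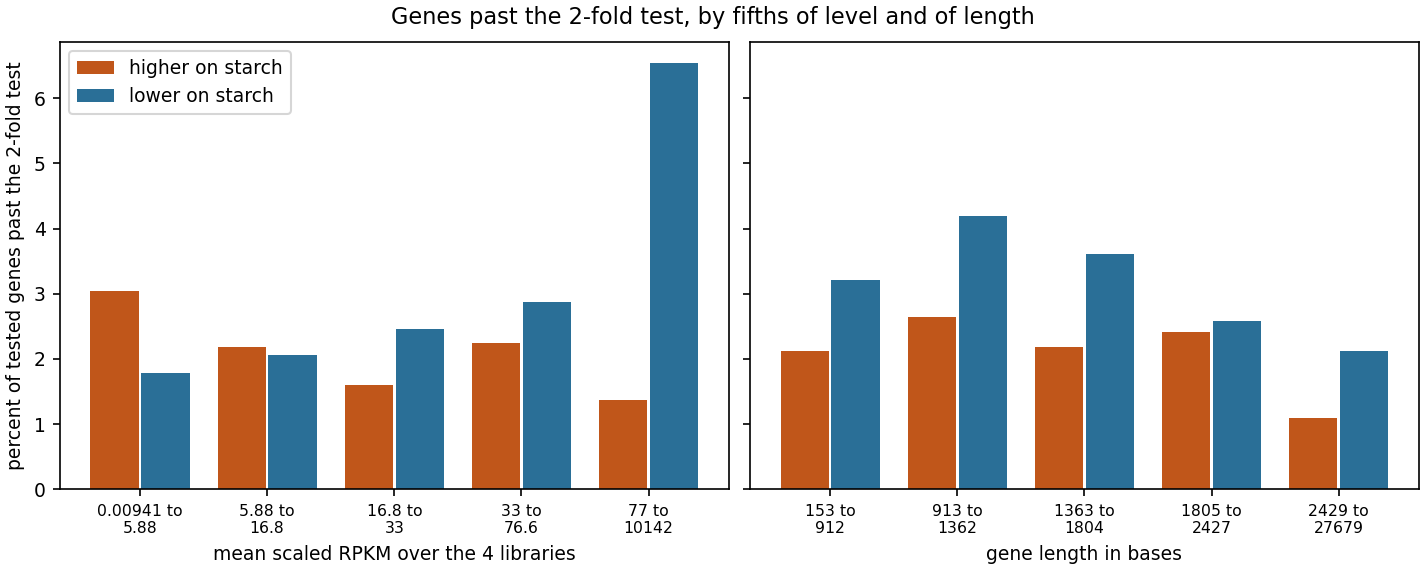
Percent of tested genes past the 2-fold test in classes of 20% of genes each, by mean scaled RPKM (left) and by gene length in bases (right), with genes higher on starch as orange bars and genes lower on starch as blue bars. In the top class by level, 1.38% of genes were higher and 6.54% lower.

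The largest relative changes among genes with at least 10 CPM in the higher medium had no symbol. Mycth_2306267 had 51.7 and 48.4 scaled RPKM on starch, against 0.606 and 0.410 on glucose (log2 fold change 6.63, standard error 0.16, adjusted p = 1.70e-36, edgeR). Its glucose level rests on 11 and 9 reads, and its scaled read ratio was 100.3 (95% counting interval 64.8 to 164.5). Mycth_2313229 had 93.1 and 92.0 scaled RPKM on starch and 1.48 and 1.41 on glucose (log2 fold change 5.999, standard error 0.096, adjusted p = 1.85e-43, edgeR). The largest falls, those of Mycth_82772 and Mycth_69746, belong to a run of neighbouring genes taken up next.

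The largest differences in level lay close together in the genome. Of the 5 genes that gained most in scaled RPKM on starch, 4 lay in 1 run of neighbouring genes, and 4 of the 5 genes that lost most lay in another, though not all side by side. The RefSeq table gives the order of 9087 of the 9110 genes but names no product for any gene in these runs, so they are given by their IDs. A run is taken here as a row of neighbouring protein-coding genes that were all past the 2-fold test in 1 direction. Since the calls define the runs, the values of their members are a description and carry no test of the run.

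The run higher on starch was the longest in that direction and held 7 genes, in the order Mycth_61442, Mycth_75296, Mycth_113600, Mycth_2311112, Mycth_2069815, Mycth_105482 and Mycth_2311121. Together they took 2.12% and 2.16% of all counted reads on starch, against 0.524% and 0.530% on glucose (477311 and 496195 reads against 102630 and 125358). The highest levels per length were those of Mycth_75296 (2203 bases), with 2857 and 2884 scaled RPKM on starch against 1005 and 1015 on glucose. Nearly the same levels were found for Mycth_2069815 (408 bases), with 2854 and 2848 on starch against 924.5 and 933.2 on glucose. Both genes ranked among the 20 highest per length on starch, 19th and 20th, and 146th and 172nd on glucose.

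Within this run the relative rise was of similar size for most members. The log2 fold change was 2.01 for Mycth_113600, 2.16 for Mycth_61442 and 2.10 for the longest gene, Mycth_105482 (7431 bases), with standard errors of 0.026 to 0.027. It was lower for Mycth_75296 (1.51), Mycth_2069815 (1.62) and Mycth_2311112 (1.45). Mycth_105482 had 789.8 and 834.4 scaled RPKM on starch, against 187.3 and 192.4 on glucose. The last member, Mycth_2311121, differed from the rest in level, with 6.09 and 6.59 scaled RPKM on starch and 0.836 and 0.692 on glucose. Its log2 fold change of 3.04 (standard error 0.36) rests on 6 reads in each glucose library, and its scaled read ratio was 8.38 (95% counting interval 4.62 to 16.7). The annotated span of Mycth_2311121 overlaps that of Mycth_105482 in the RefSeq assembly. Since the strand setting of the counting is not given in the sources used here, reads of these 2 genes cannot be told apart where they overlap. All 7 genes had both starch libraries above both glucose libraries, as had 44.6% of all tested genes. The choice of genes past the 2-fold test made this likely.

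Levels dropped sharply on both sides of the run. The next genes before it, Mycth_90577 and Mycth_2039926, had no read on starch and at most 0.130 scaled RPKM on glucose. After it, Mycth_2042719 had 0.324 and 0.397 scaled RPKM on starch and 0.107 and 0 on glucose, and Mycth_2135780 had at most 0.154 in any library. Of these flanking genes only Mycth_2135780 held enough reads to be tested (log2 fold change 0.38, adjusted p = 0.731, edgeR). Whether the rise itself stopped at the ends of the run could therefore not be told. The levels inside the run, Mycth_2311121 aside, were thus at least 187 scaled RPKM in every library, while those of the flanking genes stayed under 0.4.

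A run of 6 genes in the opposite direction held 4 of the 5 largest losses in scaled RPKM. In the order Mycth_2064854, Mycth_82782, Mycth_11658, Mycth_108317, Mycth_69746 and Mycth_82772, these genes took 0.284% and 0.299% of the reads on starch, against 3.14% and 3.29% on glucose (64097 and 68755 reads against 614817 and 778450). The fall grew along the row in this order, with log2 fold changes of -1.11, -2.50, -3.67, -4.15, -4.44 and -4.75. Mycth_82772 (1194 bases) had 192.6 and 193.4 scaled RPKM on starch, against 5210 and 5186 on glucose, where it ranked 12th of all genes per length. Mycth_69746 (1671 bases) had 177 and 175.5 on starch, against 3815 and 3828 on glucose.

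The other members of this run spanned a wide range of levels. Mycth_82782 had 578.4 and 573.5 scaled RPKM on starch and 3250 and 3265 on glucose, and Mycth_2064854 (342 bases), the least changed member, had 553 and 579.8 on starch and 1190 and 1261 on glucose. Replicates of 2 members were further apart than those of the others: Mycth_11658 had 303.5 and 343.5 on starch and 3890 and 4319 on glucose, and Mycth_108317 (6852 bases) had 85.6 and 98.3 on starch and 1560 and 1710 on glucose. Their standard errors were 0.11 on the log2 scale, against 0.027 to 0.031 for the other 4 members, and their adjusted p-values were 6.43e-05 and 4.88e-05 (edgeR). In all 6 genes, chosen by the 2-fold test, both starch libraries were still below both glucose libraries, as in 38.3% of all tested genes. The genes beside this run had lower levels, Mycth_2306185 next to Mycth_2064854 with 10.8 scaled RPKM in both starch libraries and 19.7 and 18.3 on glucose, while next to Mycth_82772 the gene Mycth_108314 had 24.2 and 24.4 on starch and 22.3 and 24.2 on glucose. Before the run, log2 fold changes were -0.81 for Mycth_2306185 and -0.83 for Mycth_2306182. After it they were 0.06 for Mycth_108314 and 1.05 for Mycth_2127750, and none of these genes passed the 2-fold test.

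**Figure D4:**
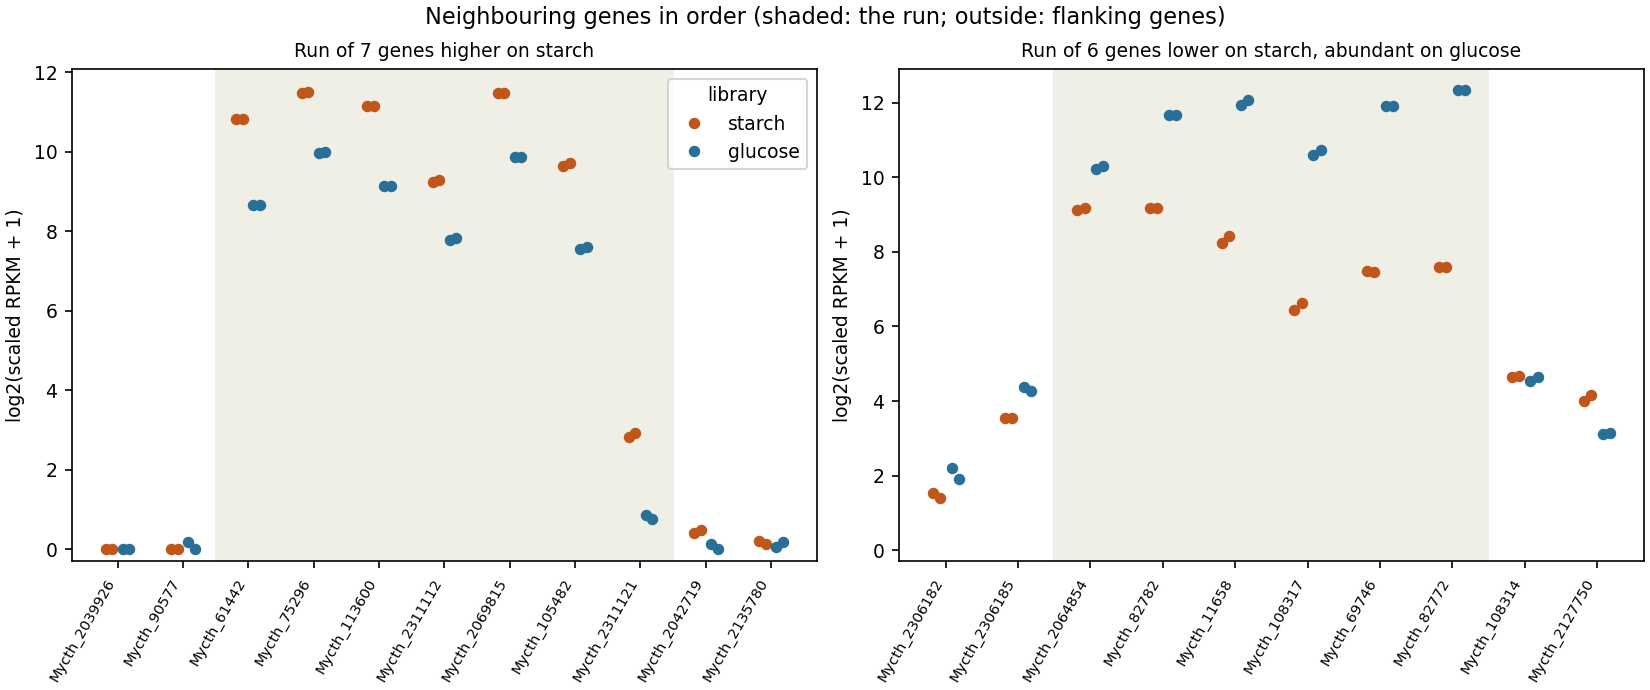
Log2(scaled RPKM + 1) of each starch and glucose library for neighbouring genes in RefSeq order, with the run of 7 genes higher on starch (left) and the run of 6 genes lower on starch (right) shaded and 2 flanking genes on each side. The starch points lie above the glucose points throughout the left run and below them throughout the right run, and the flanking genes lie near 0 in the left panel and below all genes of the run in the right panel.

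Not every gene of high level and large fall lay in a run. Mycth_87219 (928 bases) lost more scaled RPKM than any other gene past the 2-fold test, with 2500 and 2465 on starch against 7600 and 7732 on glucose (log2 fold change -1.63, standard error 0.025, adjusted p = 2.31e-44, edgeR), and it formed a pair, not a run of 3, with its neighbour Mycth_106527 (log2 fold change -1.85). The gene on its other side, Mycth_2302991, had a log2 fold change of -0.28 and did not pass the 2-fold test. Likewise, gla1 and the 2 largest relative rises stood outside such runs.

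The other long runs were all lower on starch, and their members had lower levels than those of the runs above, Mycth_2311121 aside. The longest of all held 8 genes, in the order Mycth_2303701, Mycth_2303702, Mycth_2138881, Mycth_2303707, Mycth_81364, Mycth_2303709, Mycth_50920 and Mycth_48716, with log2 fold changes of -1.43 to -6.18. Mycth_50920 aside, these genes were nearly silent on starch, where the other 7 had 1 to 37 reads in each starch library and 65 to 284 reads in each glucose library. Mycth_48716 had 3 and 1 reads on starch against 119 and 136 on glucose, a scaled read ratio of glucose to starch of 77.4 (95% counting interval 29.9 to 286). For Mycth_81364, with 5 and 4 reads against 95 and 127, that ratio was 29.9 (95% counting interval 15.5 to 66.3), and for Mycth_2303707, with 7 and 13 reads against 173 and 191, it was 22.1 (95% counting interval 14.1 to 36.6). Mycth_50920 was the exception in level, at 23.0 and 25.5 scaled RPKM on starch and 65.0 and 66.2 on glucose, and the least changed. The fall reached past the run on the side before it: the second gene before it, Mycth_50128, was also past the 2-fold test (log2 fold change -2.15), and the gene between, Mycth_115957, had a log2 fold change of -1.51 without passing it. With 8 and 11 reads on starch against 26 and 19 on glucose, the scaled read ratio of glucose to starch of Mycth_115957 was 2.87 (95% counting interval 1.65 to 5.20). After the run, Mycth_107763 had a log2 fold change of -0.27 and Mycth_2062976 one of 0.52 (adjusted p = 0.000322 and 0.202, edgeR). Neither passed the 2-fold test.

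A second run of 6 genes lower on starch comprised Mycth_40734, Mycth_112805, Mycth_104717, Mycth_59137, Mycth_112802 and Mycth_109499. Their mean levels were 0.663 to 6.67 scaled RPKM on starch and 5.14 to 21.6 on glucose, and their log2 fold changes were -1.25 to -2.96. Mycth_112805, with 7329 bases the longest of the 6, fell most, with 0.571 and 0.755 scaled RPKM on starch against 4.86 and 5.43 on glucose. Before this run the 2 flanking genes were at or under 0.1 scaled RPKM in every library. After it came Mycth_2299794, higher on starch by a log2 fold change of 0.36, and Mycth_97342, higher by 2.13 and past the 2-fold test.

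The run of 5 comprised Mycth_2066662, Mycth_54712, Mycth_2308099, Mycth_2308101 and Mycth_2308103, with log2 fold changes of -1.70 to -3.47. Mycth_2308103 had 2.67 and 3.34 scaled RPKM on starch, against 33.9 and 32.8 on glucose (standard error 0.096). Mycth_2308099 had the highest levels of the 5, 6.58 and 7.73 on starch against 51.2 and 57.7 on glucose. On glucose these 2 genes and Mycth_54712 (mean 24.6 scaled RPKM) lay above the median of the tested genes. The 2 genes before the run were also called lower, as were 32.5% of all tested genes. The nearer one, Mycth_2119794, had a log2 fold change of -1.07, without passing the 2-fold test.

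**Figure D5:**
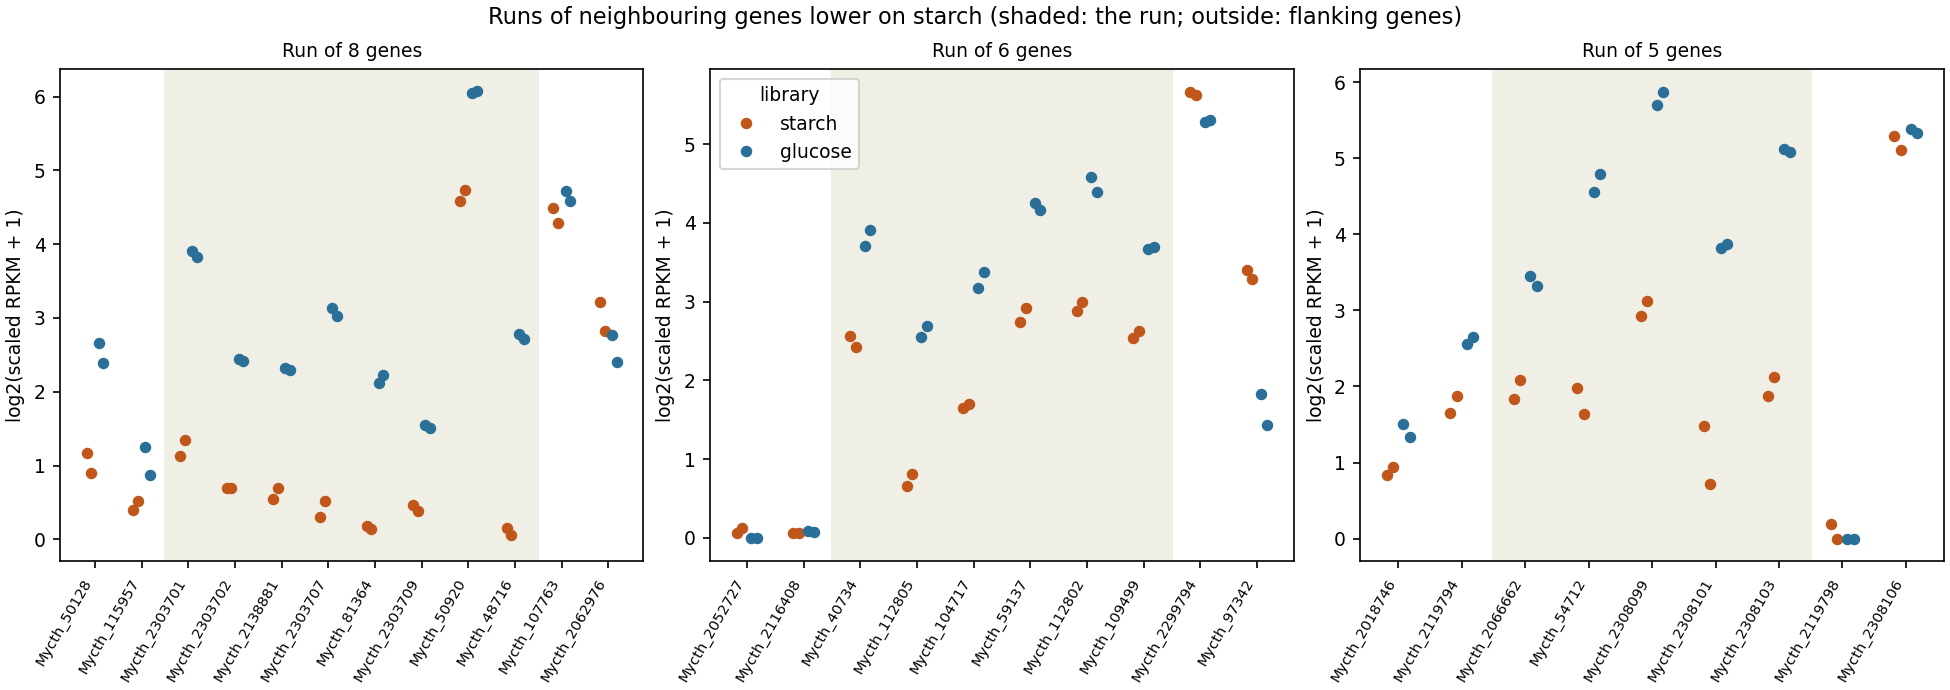
Log2(scaled RPKM + 1) of each starch and glucose library for the further runs of 8, 6 and 5 neighbouring genes lower on starch, shaded, with 2 flanking genes on each side. Starch points lie below glucose points for every shaded gene, and most shaded genes of the run of 8 lie below 1 on this scale on starch.

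Of the runs of 3, those holding the strongest rise and the strongest fall are described here. In the run of 3 rising genes Mycth_2307937, Mycth_2307942 and Mycth_2307943, the middle gene (301 bases) had 1550 and 1523 scaled RPKM on starch, against 25.8 and 26.5 on glucose (58.6-fold, log2 fold change 5.87, standard error 0.043, adjusted p = 8.44e-58, edgeR). Its level on starch was above that of gla1. Mycth_2307937 had 50.7 and 48.6 on starch against 1.38 and 1.76 on glucose (log2 fold change 4.96), and Mycth_2307943 had 1.55 and 1.93 on starch against 0.288 and 0.461 on glucose (log2 fold change 2.18). In the run of 3 falling genes Mycth_2295853, Mycth_76670 and Mycth_2295856, the middle gene changed most, with 27.1 and 26.9 scaled RPKM on starch against 405.8 and 421.3 on glucose (log2 fold change -3.94), while its neighbours had log2 fold changes of -1.33 and -1.56. In 5 of 14 alternatives only 2 of these 3 genes passed the 2-fold test.

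Over the genome, 45 of the 181 genes higher on starch past the 2-fold test that have a place in the RefSeq order (24.9%) had a neighbour called in the same direction, and so had 72 of the 274 lower genes (26.3%). Both genes were higher in 0.31% and both lower in 0.561% of the 8385 neighbouring pairs. Of single genes, 2.09% were higher and 3.14% lower, and these shares of genes cannot be set directly against shares of pairs. The shares of pairs, and of genes with such a neighbour, that the single-gene shares alone would give were not computed. There were 3 runs of at least 3 genes higher on starch, with 13 genes in all, and 9 runs lower on starch, with 40 genes. Log2 fold changes lay between 1.37 and 2.02 in the rising run of 3 not named above and between -1.11 and -2.92 in the 4 falling ones. Annotated spans overlapped in 2 of the 41 neighbouring pairs inside runs (4.88%), and in 2.62% of all neighbouring pairs. Whether neighbours shared reads was not tested. Whether neighbours shared a direction more often than genes far apart was not tested.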

How the data were processed

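Messenger RNA was sequenced from mycelium on starch and on glucose (2 libraries each) and without carbon (2 libraries). The authors deposited raw read counts and RPKM for 9110 genes. Alignment and counting tools, per the submitters' processing notes, were TopHat2 2.0.8b with HTSeq 0.5.4p2; settings, genome build and annotation: not given in the sources used here. Each deposited RPKM value equalled count over library total and 1 gene length (100% of 8989 implied lengths were whole within 0.001 bases), and served only to obtain that length. Members and rules were chosen with earlier results of these data known.

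Counts were fitted in R 4.3.3 with edgeR 4.0.16: filterByExpr (8718 genes tested, 392 not), TMM scaling, all 6 libraries in 1 robust quasi-likelihood fit with 3 residual degrees of freedom, and Benjamini-Hochberg adjustment over all tested genes. The fit's common biological coefficient of variation was 2.52%. The procedure was first run on counts simulated from the fitted spread, with few genes changed. That run does not bear on data with as many calls as here. Depth per library and its floor of 3 reads open the report, and counting intervals (exact Clopper-Pearson, 95%) are given beside the ratios of genes with 20 reads or fewer in a medium. Of 9110 IDs, 9087 matched locus tags of the RefSeq assembly ASM22609v1, which has 6 symbols and no product text. The assembly was used only for symbols, gene type, gene order and the overlap of annotated spans. Lists by function and checks of promoters or proteins had been planned and had no text or sequence to act on. Named genes are those with a symbol, the 2 largest rises and falls with at least 10 CPM, and the 5 largest gains and losses of RPKM past the 2-fold test. Genes in runs, their flanking genes the neighbours of symbol-bearing genes and those of Mycth_87219 were added after the values were seen. Alternatives were DESeq2 1.42.0, voom from limma 3.58.1, RLE, upper quartile and library total scaling, looser and stricter filters, a fit on 4 libraries, the replicate number as a block, a non-robust fit and each library left out.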

Additional observations from a re-analysis of the deposited data

How the results depend on the processing

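All 4 counts of calls were recomputed under 14 alternatives. With library totals alone, 4811 genes were called higher and 1701 lower on starch at an adjusted p under 0.05, and 280 were more than 2-fold higher; the shift of the median of all genes by 0.205 belongs to that scaling. The other counts stayed within 1.5 times the main ones. With each library left out, the counts were 2776 to 2965 higher and 2604 to 2709 lower, and 158 to 175 and 255 to 265 past the 2-fold test. Fewer genes were called higher than lower with RLE size factors in edgeR (2949 and 2975) and with DESeq2 (2473 and 2640), both of which shift the median of all genes by -0.02. DESeq2 kept 125 of the 182 and 232 of the 274 genes past the 2-fold test. The share of neighbouring pairs both past the 2-fold test in 1 direction was 0.871%, became 0.668% with DESeq2 and lay between 0.766% and 0.908% under the other fits; with calls at an adjusted p under 0.05 it was 29.1%, since far more genes are called. Those fits of pairs and runs were added after the data were seen.

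All 7 genes of the rising run, all 8 of the longest falling run and all 5 of the run of 5 passed the 2-fold test under every alternative. Of the run of 6 abundant genes, 5 or 6 passed, and of the other run of 6, 4 to 6. The 2 rising runs of 3 and 1 falling run of 3 kept all members, and in the other 4 falling runs of 3 the fewest past the test were 1 or 2. Leaving out a library reversed no called gene that is named. Signs turned only for genes beside symbol-bearing ones. These were close to no change or sparse, except for Mycth_2107102, a gene of high level that was called lower. With a library left out, log2 fold changes were -0.020 to 0.093 for Mycth_2311886 beside gla1 (main value 0.04), -0.094 to 0.021 for Mycth_2310013 beside phy1 (main value -0.04) and -0.82 to 1.22 for Mycth_95391 beside lcc1 (main value 0.54). Mycth_2310013 had 0.0012 with upper quartile scaling and 0.17 with library totals. Mycth_2107102 beside ganA (main value -0.20) had 0.00098 with library totals and lost its call (adjusted p = 0.975, edgeR). With library totals, Mycth_2311886 was called higher (0.24, adjusted p = 0.000586), while Mycth_2304406 beside cat1 (-0.19, adjusted p = 0.0748) and Mycth_2302991 (-0.07, adjusted p = 0.357, edgeR) lost their calls. Mycth_117620 beside phy1 lost its call in DESeq2 (adjusted p = 0.143) and without starch replicate 2 or glucose replicate 1 (adjusted p = 0.107 and 0.104, edgeR). Runs of at least 3 genes numbered 3 to 6 higher and 6 to 9 lower on starch under these fits.

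Replicate numbers shared between media are not stated to mark a pairing. Deviations of same-numbered starch and glucose libraries correlated at -0.02 across genes, and a replicate block gave 3182 genes higher and 2862 lower, 182 and 274 past the 2-fold test. Lists by function and shares of promoter motifs or protein classes were not run for want of annotation text and sequences. The cause of the fewer calls past the 2-fold test with DESeq2 was not tested.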
